A study of Mus musculus with 12 samples.

Results

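Livers of TNF receptor knockout mice were set against livers of sham-operated wild-type mice, gene by gene, to see which parts of the response to liver ischemia were present in animals labelled as knockout for both TNF receptors. The comparison takes 6 of the 12 libraries of the series: all 3 labelled TNFR1/2 KO and all 3 labelled Sham. The Sham mice carry the genotype WT. The labels give the other groups by genotype alone (TNFR1/2 KO, WT and RIPK1 D138N, a kinase-dead form of RIPK1), and only the Sham libraries carry a sham label, so it is the series title that places the other 9 libraries in the ischemia arm. The labels give neither the time after ischemia nor the age or sex of the mice, and do not say that replicates came from separate animals, so the p-values may measure a technical spread. No sham-operated knockout library is among the samples analysed here. A difference that the knockout line has without surgery and a response to ischemia therefore cannot be told apart in this comparison.

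TNF is a cytokine released by macrophages and other cells. TNF receptor 1 (gene Tnfrsf1a) signals through the kinase RIPK1 either to the transcription factor NF-κB, which induces inflammatory and survival genes, or to caspase 8 and necroptosis. TNF receptor 2 (Tnfrsf1b) lacks the death domain and is found mainly on immune and endothelial cells. Ischemic liver also activates routes that do not start at TNF: stress kinases that switch on immediate early genes within minutes, hypoxia-inducible factors, heat shock factors, and the acute-phase program that interleukin 6 drives in hepatocytes.

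The libraries were measured as FPKM, fragments scaled by transcript length and by the number mapped in the library, over 53796 gene rows. Between 10135 and 10653 genes reached 1 FPKM in each library of the series. Across genes, Pearson's r on log2(FPKM + 1) was 0.967 to 0.980 among the Sham libraries, 0.972 to 0.982 among the knockout libraries and 0.908 to 0.927 between the groups. The summed FPKM was 649373 to 750501 in Sham and 441296 to 512931 in the knockout libraries. Hepatocyte markers were high in every library, among them Ttr, which carries thyroid hormone and retinol in plasma, at 2907 to 3466 FPKM in Sham and 3409 to 4447 FPKM in the knockout libraries. Of 8 hepatocyte markers tested, 0 were higher and 4 lower in the knockout than in the Sham libraries at an adjusted p under 0.05 (limma). Of all genes tested, 7.46% were higher and 18.1% lower. Under median-of-ratios scaling or quantile normalization 1 marker was lower, with 1 higher under the latter. Under these scalings 1193 and 1180 of the 11728 genes tested were lower. Albumin itself is listed at 0 in all 12 libraries, which can be a failed estimate, and 24 further tested genes lie in loci listed at 0 in every library of at least 1 group while reaching 100 FPKM in another. No gene in those loci is named here.

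The knockout label was read first against the receptors. Tnfrsf1a was at 59.3, 60.7 and 88.6 FPKM in the Sham libraries and at 15.3, 21.9 and 18.4 FPKM in the knockout libraries, with 32.3 to 38.1 FPKM in the WT libraries. The knockout and Sham libraries did not overlap, and the fall by 1.84 ± 0.18 (SE) on the log2 scale passed the test (limma, adjusted p = 3.4e-05). Against the RIPK1 D138N libraries, however, Tnfrsf1a was not called. It is among 25 tested TNF receptor and necroptosis signaling genes, of which 0 were called higher or lower there. Its level thus sets the knockout libraries apart from Sham but was not called different from the other mutant line. Tnfrsf1b stood at 3.83, 8.61 and 8.33 FPKM in Sham and at 7.22, 3.96 and 9.31 FPKM in the knockout libraries, which overlap (log2 fold change -0.01 ± 0.29, adjusted p = 0.98), so its level does not set the libraries labelled knockout apart from Sham. Reads from parts of a gene that a knockout leaves in place count towards its FPKM, so these levels do not test whether the receptors are functional. Tnf itself did not pass the filter on low values, with at most 0.0295 FPKM in Sham and 0.227 to 0.365 FPKM in the knockout libraries.

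Of the 11728 genes that reached 1 FPKM in 3 or more libraries, 3002 (25.6%) were called different between knockout and Sham at an adjusted p under 0.05, 875 (7.46%) higher and 2127 (18.1%) lower in the knockout libraries. Fold changes are differences of group means of log2(FPKM + 1), given with their standard error. They understate the change of genes near or under 1 FPKM. The median over all tested genes was -0.18, and it became -0.017 under median-of-ratios scaling of the libraries and -0.030 under quantile normalization, with 1234 higher and 1193 lower calls under the first and 1122 and 1180 under the second. List medians are therefore also given relative to the median of all genes. Counts of list members called against Sham are likewise to be read beside the 7.46% higher and 18.1% lower of all genes. Leaving out the third knockout library left 1856 calls (550 higher, 1306 lower), and leaving out the first left 1341 lower calls.

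The same model gave WT minus Sham, in which 16.4% of genes were called higher and 41.9% lower. That comparison shares the Sham libraries with the knockout comparison, so the values of each are set side by side. The test of whether they differ is the knockout minus WT contrast, in which the Sham means cancel. There, 29.6% of genes (3466) were called higher in the knockout libraries and 17.5% (2054) lower. These counts were 3079 and 2706 under median-of-ratios scaling and 2859 and 3093 under quantile normalization. For WT minus Sham the 1918 higher and 4913 lower calls became 2834 and 3515 under the first and 2936 and 3164 under the second. The summed FPKM was 288934 to 303514 in the WT libraries.

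**Figure D1:**
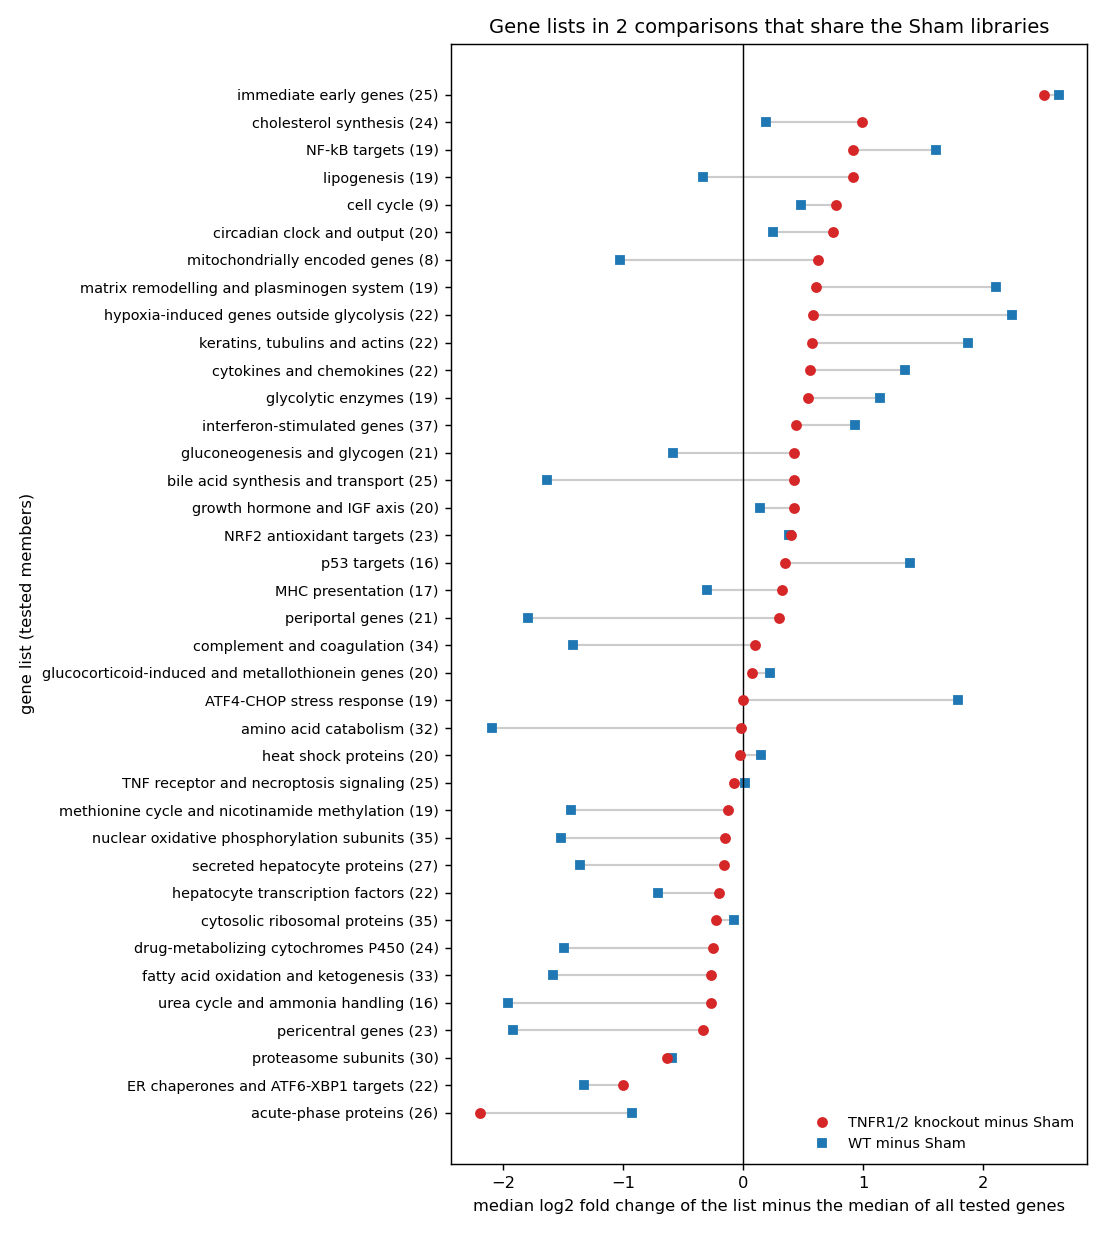
Median log2 fold change of each of 38 gene lists minus the median of all tested genes (horizontal axis), for TNFR1/2 knockout minus Sham (red circles) and WT minus Sham (blue squares). Lists are ordered by the knockout value, and the number of tested members is in parentheses. Immediate early genes lie far to the right in both comparisons, acute-phase proteins lie farthest to the left in the knockout comparison, and most hepatocyte metabolic lists lie near 0 in the knockout comparison and between -1 and -2.1 in the WT comparison.

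Immediate early genes, the transcription factors and signal-damping phosphatases that cells switch on without new protein synthesis, were the pathway list with the highest median in the knockout comparison. Of 29 genes, 25 passed the filter, 21 were called higher and 0 lower, with a median log2 fold change of 2.32 beside the -0.18 of all genes. In WT minus Sham, 23 of the 25 were called higher, with a median of 2.26. Promoter stretches of 3 of the called members are shown because they hold the same cyclic AMP response element, TGACGTCA, the site that CREB and ATF proteins bind. The sequences come from RefSeq (build GRCm38.p6), run 5′ to 3′ on the gene's strand, and have the element in capitals: Dusp1 at chr17:26508558-26508677 (minus strand), Btg2 at chr1:134079264-134079383 (minus strand) and Maff at chr15:79347400-79347519 (plus strand).
Dusp1: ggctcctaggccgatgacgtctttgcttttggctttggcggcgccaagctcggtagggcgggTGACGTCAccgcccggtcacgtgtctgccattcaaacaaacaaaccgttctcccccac
Btg2: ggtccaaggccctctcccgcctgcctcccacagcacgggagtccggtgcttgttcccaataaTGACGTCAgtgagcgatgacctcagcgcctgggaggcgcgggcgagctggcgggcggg
Maff: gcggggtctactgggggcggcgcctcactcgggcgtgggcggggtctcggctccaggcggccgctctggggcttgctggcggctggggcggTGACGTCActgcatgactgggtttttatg
The element begins 143 bases before the annotated start in Dusp1, 166 in Btg2 and 29 in Maff. The window searched ran 250 bases before to 50 after each start. The element occurred in 4 of the 23 immediate early genes that have a promoter in the table and in 1.79% of 32851 promoters of the same length. A match describes the letters and does not show that a factor was bound.

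Fos, a subunit of the AP-1 transcription factor, was at 0.928, 1.63 and 1.54 FPKM in the Sham libraries, at 76.2, 72.7 and 102 FPKM in the knockout libraries and at 32.3 to 42.6 FPKM in the WT libraries. The groups did not overlap, and Fos rose by 5.16 ± 0.20 (adjusted p = 2.3e-09). It was also higher in the knockout than in the WT libraries, by 1.15 ± 0.20 (adjusted p = 0.0004). The phosphatase Dusp1, which switches off stress kinases, was at 5.9, 20.9 and 15.2 FPKM in Sham, 85.9, 114 and 161 FPKM in the knockout and 41.5 to 53.1 FPKM in the WT libraries. Its rise over Sham was 3.12 ± 0.35 in the knockout and 1.87 ± 0.35 in the WT libraries, and the difference of 1.25 ± 0.35 passed the test (adjusted p = 0.011). The orphan nuclear receptor Nr4a1 followed the same order, at 0.294 to 0.404 FPKM in Sham, 10.8 to 15.6 FPKM in the knockout and 5.35 to 8.31 FPKM in the WT libraries.

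Other members rose to the WT level or stopped short of it. Atf3, a stress-induced repressor, was at 2.21 to 3.62 FPKM in Sham, 75.3, 94.3 and 98.0 FPKM in the knockout and 93.2 to 176 FPKM in the WT libraries (4.56 ± 0.29 over Sham, adjusted p = 6.2e-07). Egr1, a growth-factor-induced zinc finger factor, rose by 3.66 ± 0.44 in the knockout and 3.20 ± 0.44 in the WT libraries. For Egr1 and Atf3 the knockout and WT libraries overlapped. Ier3, which modulates cell survival under stress, was at 0.733 to 1.19 FPKM in Sham, 21.2, 31.6 and 16.5 FPKM in the knockout and 72.2 to 122 FPKM in the WT libraries. Its rise of 3.62 ± 0.38 in the knockout libraries was smaller than the 5.77 ± 0.38 in WT, a difference of -2.15 ± 0.38 (adjusted p = 0.00053). Maff, a small MAF factor, likewise rose by 3.40 ± 0.30 against 4.61 ± 0.30. Across the list, 5 members were called higher in the knockout than in the WT libraries and 9 lower. Fosl1, an AP-1 subunit that reached 6.16 to 12.8 FPKM in WT, was at 0.53 to 2.36 FPKM in the knockout libraries and was not called against Sham (adjusted p = 0.053).

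**Figure D2:**
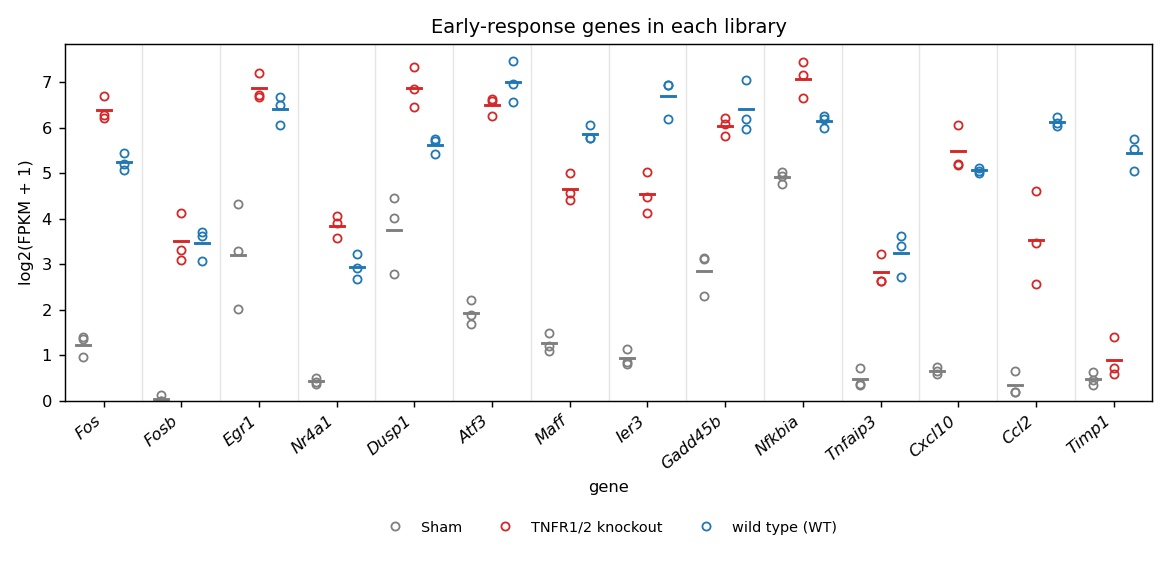
log2(FPKM + 1) of 14 early-response genes (horizontal axis) in each Sham (grey), TNFR1/2 knockout (red) and WT (blue) library, with circles for libraries and bars for group means. For Fos, Nr4a1, Dusp1, Nfkbia and Cxcl10 the knockout libraries lie above the WT libraries, and for Maff, Ier3, Ccl2 and Timp1 they lie below them. For all genes but Timp1 the knockout libraries lie above every Sham library.

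Among 22 targets of NF-κB, the factor downstream of TNF receptor 1, 19 passed the filter, 10 were called higher and 2 lower in the knockout libraries (median 0.74, or 0.92 above all genes). In WT minus Sham 15 were called higher and 0 lower. Nfkbia, the inhibitor that NF-κB induces to end its own activity, was at 26.1, 29.5 and 31.6 FPKM in Sham, 98.8, 172 and 141 FPKM in the knockout and 62.6 to 75.5 FPKM in the WT libraries. It rose by 2.17 ± 0.22 over Sham (adjusted p = 3.6e-05) and lay 0.93 ± 0.22 above WT (adjusted p = 0.0038). Tnfaip3 (A20), the enzyme that strips ubiquitin from RIPK1 and is a standard TNF target, was at 0.262 to 0.65 FPKM in Sham, 5.19, 8.34 and 5.22 FPKM in the knockout and 5.53 to 11.3 FPKM in the WT libraries. Its rises were 2.36 ± 0.27 and 2.77 ± 0.27, and the difference between them was not called (-0.41 ± 0.27, adjusted p = 0.22). Gadd45b rose by 3.19 ± 0.33 and Nfkbiz, an inducible nuclear member of the IκB family, by 2.89 ± 0.26. The NF-κB subunit gene Nfkb2 behaved otherwise: 0.514 to 0.731 FPKM in Sham, 1.62 to 1.89 FPKM in the knockout and 6.15 to 9.25 FPKM in the WT libraries. It rose by 0.75 ± 0.18 in the knockout and was lower than in WT (-1.59 ± 0.18, adjusted p = 1.8e-05). The member Tnip2, a partner of A20, fell by 0.76 ± 0.17, and Nfkbib was called lower but lost the call under both scalings.

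The Nfkbia promoter is shown because Nfkbia was the NF-κB target with the highest level in the knockout libraries among those named. The stretch lies at chr12:55492648-55492767 (minus strand) and has a κB element in capitals, beginning 29 bases before the start.
Nfkbia: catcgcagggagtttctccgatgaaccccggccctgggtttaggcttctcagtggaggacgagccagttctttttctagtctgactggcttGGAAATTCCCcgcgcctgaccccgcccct
The 2 forms of the κB element searched, on both strands, occurred in 2 of 17 listed genes with a promoter (Nfkbia and Nfkb2) and in 0.244% of all promoters.

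Of 28 TNF receptor and necroptosis signaling genes, 25 passed, 2 were called higher and 7 lower, beside 7.46% and 18.1% of all genes. The higher count is thus near the share of all genes. The lower count was 4 under either scaling and without the third Sham column or any 1 knockout library. Of all 11728 genes, 1193 were called lower under median-of-ratios scaling and 1180 under quantile normalization. The 2 that rose, Tnfaip3 and Birc3 (cIAP2, 1.59 ± 0.19), are also NF-κB targets. Ikbkg (NEMO), the scaffold of the kinase complex that activates NF-κB, was at 23.1, 21.5 and 15.9 FPKM in Sham, 5.74, 8.53 and 7.74 FPKM in the knockout and 12.4 to 22.4 FPKM in the WT libraries. It fell by 1.34 ± 0.28 against Sham (adjusted p = 0.0042), and it was lower than in WT by a log2 difference of -1.23 ± 0.28 (adjusted p = 0.0027). Ripk1, at 5.18 to 9.08 FPKM in Sham and 3.61 to 4.18 FPKM in the knockout libraries, was at the edge of the threshold (-0.59 ± 0.20, adjusted p = 0.048) and was not called under either scaling.

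Cytokine genes split into those that stayed and those that did not. Of 26 genes, 22 passed, 6 were called higher and 2 lower in the knockout libraries (median 0.38), and 13 higher and 6 lower in WT. Cxcl10, a chemokine for activated T cells induced by interferon and NF-κB, was at 0.504 to 0.667 FPKM in Sham, 35.9, 35.2 and 65.9 FPKM in the knockout and 31.3 to 33.4 FPKM in the WT libraries. Its rises of 4.82 ± 0.31 and 4.40 ± 0.31 were not called different (adjusted p = 0.28). Ccl2, the main chemoattractant for monocytes, was at 0.141 to 0.56 FPKM in Sham, 4.9, 23.3 and 9.98 FPKM in the knockout and 64.6 to 74.6 FPKM in the WT libraries. It rose by 3.20 ± 0.68 (adjusted p = 0.0051) but stayed below every WT library (-2.58 ± 0.68, adjusted p = 0.0073). Cxcl2, a neutrophil chemoattractant, rose by 2.82 ± 0.63. Cxcl1, a related chemokine, was not called (-0.35 ± 0.44). Ccl6, a macrophage and neutrophil chemokine, went the other way: 8.82 to 15.9 FPKM in Sham, 1.15 to 2.33 FPKM in the knockout and 20.8 to 26.7 FPKM in the WT libraries (fell by 2.28 ± 0.28, adjusted p = 0.00015).

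Of 39 interferon-stimulated genes, which make antiviral effectors, 37 passed, 12 were called higher and 1 lower in the knockout libraries (median 0.26, 0.44 above all genes), against 20 and 8 in WT. Rsad2 (viperin) was at 1.02, 1.79 and 1.14 FPKM in Sham, 11.7, 13.4 and 15.6 FPKM in the knockout and 33.3 to 45.0 FPKM in the WT libraries. It rose by 2.66 ± 0.25 and was lower than in WT (-1.41 ± 0.25, adjusted p = 0.00046). Ifit3 and Ifit1, which bind foreign RNA ends, rose by 1.19 ± 0.16 and 0.97 ± 0.18 against 2.35 ± 0.16 and 1.99 ± 0.18 in WT. Oasl1 and Usp18 rose by 1.86 ± 0.31 and 1.21 ± 0.20 and were not called different from WT. The abundant membrane protein gene Ifitm3, at 753 to 965 FPKM in Sham and 797 to 1015 FPKM in the knockout libraries, was not called (0.05 ± 0.20). Promoter stretches of Rsad2 (chr12:26456513-26456632, minus strand) and Ifit1 (chr19:34640725-34640844, plus strand) are shown because both carry the interferon-stimulated response element, 2 GAAA blocks with 2 bases between them on either strand, here in capitals.
Rsad2: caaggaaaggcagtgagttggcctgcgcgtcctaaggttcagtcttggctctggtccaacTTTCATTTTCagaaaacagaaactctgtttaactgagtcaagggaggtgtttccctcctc
Ifit1: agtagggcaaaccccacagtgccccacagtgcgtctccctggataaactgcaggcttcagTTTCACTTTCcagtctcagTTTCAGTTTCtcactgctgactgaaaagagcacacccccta
Ifit1 holds 2 copies. The element occurred in 16 of 28 listed genes with a promoter, in 7 of the 10 of those that were called higher, and in 3.44% of all promoters.

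Heat shock proteins fold damaged proteins and are induced by heat shock factor 1. All 20 listed genes passed, and 4 were called higher under every setting tried, beside 7.46% of all genes. Another 4 were called lower, near the share of 18.1% of all genes. The lower count was 1 under either scaling, without the third Sham column and without the third knockout library. Hspa1a and Hspa1b, the inducible HSP70 genes, were at 0.212 to 0.332 and 1.2 to 2.12 FPKM in Sham and at 10.3 to 16.4 and 19.3 to 28.0 FPKM in the knockout libraries. They rose by 3.42 ± 0.35 and 3.14 ± 0.31, against 2.70 ± 0.35 and 2.87 ± 0.31 in WT, and neither difference was called. Reads of these near-identical copies can be split between them by the counting. Hspb1 rose by 1.57 ± 0.34. Hspb8, a small heat shock protein of selective autophagy, was at 353 to 448 FPKM in Sham and 91.0, 152 and 137 FPKM in the knockout libraries and fell by 1.63 ± 0.28.

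Many genes of the stress programs tied to DNA damage and amino acid shortage were lower in the knockout than in the WT libraries. Of 20 p53 targets, 16 passed, 4 were called higher and 2 lower (12 and 1 in WT), and 9 were called lower than in WT. Of all genes tested, 7.46% were called higher and 18.1% lower against Sham, and 16.4% and 41.9% in WT. In knockout minus WT, 17.5% of all genes were called lower. These shares also stand beside the counts of the ATF4 and CHOP list and the NRF2 list below. Gadd45a, a growth arrest gene, was at 9.7, 12.5 and 41.6 FPKM in Sham, 146, 290 and 247 FPKM in the knockout and 141 to 349 FPKM in the WT libraries, a rise of 3.58 ± 0.56. Plk2 rose by 2.28 ± 0.23 and Trp53inp1 by 1.90 ± 0.26, while the death receptor gene Fas fell by 1.24 ± 0.22. Cdkn1a (p21), the cell cycle inhibitor most often used as a p53 readout, was at 25.2 to 59.6 FPKM in Sham, 22.7 to 34.9 FPKM in the knockout and 97.2 to 100 FPKM in the WT libraries and was not called against Sham (-0.53 ± 0.32). Of 22 genes of the ATF4 and CHOP response, 19 passed, 3 were called higher and 6 lower, against 10 and 3 in WT, and 12 were called lower than in WT. The stress cytokine Gdf15 was at 8.28, 10.4 and 23.4 FPKM in Sham and 101, 184 and 252 FPKM in the knockout libraries and rose by 3.62 ± 0.39. The hepatokine Fgf21 fell by 2.60 ± 0.30 and asparagine synthetase, Asns, by 2.30 ± 0.48. Of 24 NRF2 targets, 23 passed and 7 were called higher, with 4 left without any 1 Sham column or without the first or the third knockout library and 13 under quantile normalization. Gclc, the rate-limiting enzyme of glutathione synthesis, rose by 1.51 ± 0.18 in the knockout and 1.53 ± 0.18 in the WT libraries.

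Hypoxia-induced genes outside glycolysis were mostly lower in the knockout than in the WT libraries. Of 26 genes, 22 passed and 9 were called higher and 3 lower against Sham, against 18 and 1 in WT. In the knockout minus WT contrast 19 of the 22 were called lower and 0 higher. The count of 9 was 5 without the third Sham column, without the second knockout library or without the third. Adm (adrenomedullin), a vasodilator peptide gene, was at 0.783 to 1.31 FPKM in Sham, 5.6, 12.6 and 11.1 FPKM in the knockout and 35.1 to 58.0 FPKM in the WT libraries. It rose by 2.37 ± 0.32 and lay below WT (-2.22 ± 0.32, adjusted p = 0.00012). Egln3, an oxygen sensor that is itself a hypoxia target, was at 1.87 to 1.90 FPKM in Sham, 5.80 to 10.2 FPKM in the knockout and 31.8 to 38.2 FPKM in the WT libraries. The pentamer ACGTG, the core of the hypoxia response element, occurred in 12 of 16 listed genes with a promoter and in 19.6% of all promoters.

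Among injury and matrix genes, some reached the WT level and others stayed near Sham. Of 25 genes of matrix remodelling and the plasminogen system, 19 passed and 5 were called higher and 2 lower, against 14 and 1 in WT. The higher count was 10 with a pseudocount of 0.1 and 9 when only both groups compared were fitted, and the lower count was 0 under either scaling. Cyr61 (CCN1), a secreted matrix protein and YAP target, was at 1.71 to 2.76 FPKM in Sham, 55.7, 87.4 and 120 FPKM in the knockout and 68.1 to 74.4 FPKM in the WT libraries. Its rise of 4.75 ± 0.23 (adjusted p = 3.3e-08) was not called different from the 4.52 ± 0.23 in WT. Timp1, a metalloproteinase inhibitor, was at 0.273 to 0.548 FPKM in Sham, 0.636, 1.62 and 0.509 FPKM in the knockout and 32.0 to 52.5 FPKM in the WT libraries, and was not called against Sham. Of 24 keratin, tubulin and actin genes, 22 passed and 7 were called higher and 1 lower. Krt8, a keratin of hepatocytes and bile ducts, was at 76.9, 95.0 and 110 FPKM in Sham, 245, 447 and 347 FPKM in the knockout and 999.6 to 1145 FPKM in the WT libraries, a rise of 1.84 ± 0.35. Its partner Krt18 overlapped between knockout and Sham (0.63 ± 0.32, not called).

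Acute-phase genes were the list with the lowest median. Of 29 genes, 26 passed, 22 were called lower and 0 higher, with a median of -2.37 (-2.19 relative to the median of all genes). The lower count was 22 or 23 under every setting tried. In WT, 16 were called lower and 2 higher, and 17 were lower in the knockout than in the WT libraries. Against the RIPK1 D138N libraries, 0 of the 26 were called higher or lower in the knockout. The serum amyloid genes Saa1 and Saa2, apolipoproteins of the acute phase, were very abundant in the Sham livers. Saa1 was at 24270, 19788 and 22200 FPKM in Sham, 398, 725 and 236 FPKM in the knockout and 3416 to 5334 FPKM in the WT libraries. Saa2 was at 23655 to 30614 FPKM in Sham and 186 to 679 FPKM in the knockout libraries. They fell by 5.75 ± 0.88 (adjusted p = 0.00069) and 6.20 ± 0.98 (adjusted p = 0.00088), and reads of the similar Saa copies can be split between them.

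Orm2 and Lcn2, of the acute-phase genes, were called lower than Sham in the knockout libraries and not called in WT. Orm2 (orosomucoid 2), a plasma carrier protein, was at 298, 319 and 380 FPKM in Sham, 25.5, 19.9 and 9.42 FPKM in the knockout and 287 to 487 FPKM in the WT libraries. It fell by 4.21 ± 0.35 against Sham (adjusted p = 7.7e-06) and was lower than in WT (-4.47 ± 0.35, adjusted p = 1.4e-06), while WT against Sham was not called (0.26 ± 0.35). Lcn2 (lipocalin 2), which sequesters bacterial siderophores, was at 1502 to 3679 FPKM in Sham, 201, 314 and 132 FPKM in the knockout and 1838 to 2746 FPKM in the WT libraries, and fell by 3.38 ± 0.67. Serpina3n, a protease inhibitor, was at 1262 to 2827 FPKM in Sham and 123, 135 and 130 FPKM in the knockout libraries, and fell by 3.93 ± 0.31, and it also fell in WT, by 1.32 ± 0.31. The fibrinogen chains Fga, Fgb and Fgg fell by 2.37 ± 0.27, 2.22 ± 0.20 and 2.44 ± 0.23, and in WT by 1.64 ± 0.27, 1.37 ± 0.20 and 1.61 ± 0.23. Hamp (hepcidin), the iron hormone, fell by 4.13 ± 0.83 with a wide spread, at 104, 2140 and 236 FPKM in the knockout and 2756 to 12555 FPKM in the Sham libraries, and fell in WT by 2.60 ± 0.83. The metal-binding metallothioneins Mt1 and Mt2 fell by 3.11 ± 0.33 and 2.40 ± 0.38, and both were lower than in WT. In WT against Sham, Mt1 fell by 0.87 ± 0.33 and Mt2 was not called (-0.43 ± 0.38). Members not called against Sham included complement C3 (-0.91 ± 0.36) and ceruloplasmin, Cp (-0.40 ± 0.33).

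**Figure D3:**
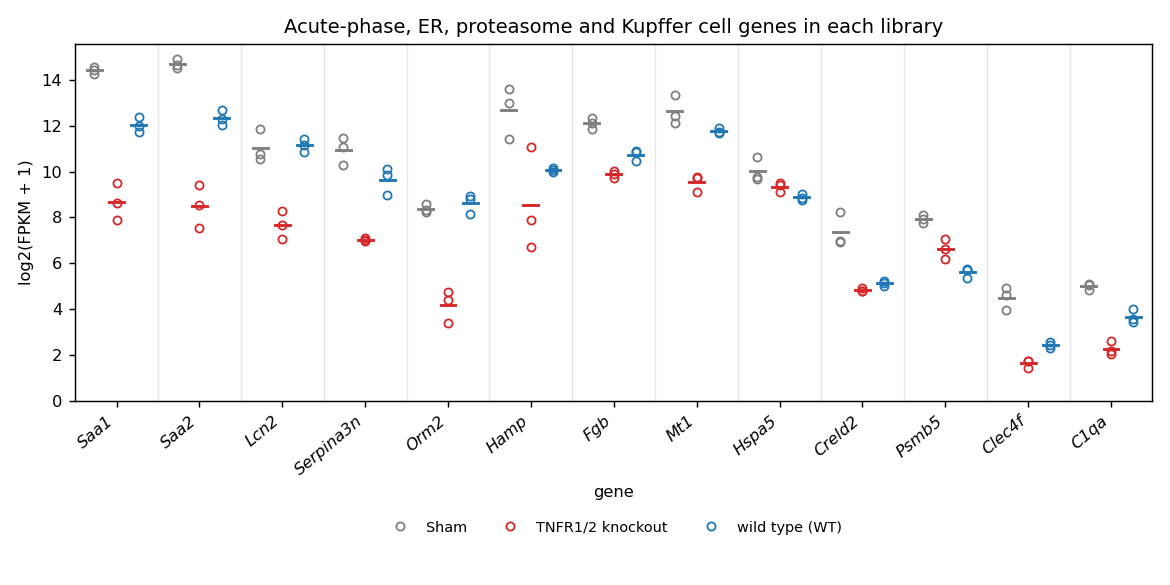
log2(FPKM + 1) of 13 genes (horizontal axis) in each Sham (grey), TNFR1/2 knockout (red) and WT (blue) library, with circles for libraries and bars for group means. Saa1, Saa2, Lcn2, Serpina3n, Orm2, Mt1, Clec4f and C1qa show the knockout libraries below every WT and Sham library. For Creld2 the knockout and WT libraries both lie far below Sham.

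Most ER chaperone and proteasome genes on the lists were called lower than Sham in both the knockout and the WT libraries. Chaperones of the ER, the endoplasmic reticulum, and other targets of ATF6 and XBP1, which fold the proteins that hepatocytes secrete, had 22 of 22 members tested, 19 called lower and 0 higher (median -1.18). The lower count was 14 under either scaling. In WT, 22 of 22 were called lower. Creld2, an ER stress protein, was at 121, 125 and 302 FPKM in Sham, 29.4, 26.6 and 26.8 FPKM in the knockout and 30.8 to 36.0 FPKM in the WT libraries. It fell by 2.55 ± 0.28 (adjusted p = 6.1e-05) and was not called different from WT. Sdf2l1 fell by 2.52 ± 0.26, Syvn1 (the ubiquitin ligase HRD1) by 2.04 ± 0.39 and Manf by 1.98 ± 0.25. Hspa5 (BiP), the major ER chaperone, did not overlap, at 825 to 1583 FPKM in Sham and 550 to 718 FPKM in the knockout libraries, but was not called (-0.68 ± 0.26, adjusted p = 0.07). Herpud1, of ER-associated degradation, separated knockout from WT: 258 to 492 FPKM in Sham, 211 to 272 FPKM in the knockout and 47.9 to 55.3 FPKM in the WT libraries.

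Of 30 proteasome subunits all passed, 25 were called lower and 0 higher (median -0.82, or -0.64 relative to all genes), with 18 called lower under median-of-ratios scaling and 15 under quantile normalization. In WT 25 were called lower and 1 higher. Psmb5, the chymotrypsin-like catalytic subunit, was at 273, 212 and 244 FPKM in Sham, 72.3, 133 and 98.0 FPKM in the knockout and 39.4 to 53 FPKM in the WT libraries, and fell by 1.29 ± 0.23. Psmd6 and Psmd14, of the regulatory cap, fell by 1.24 ± 0.16 and 1.16 ± 0.21. Psmd11, also of the cap, fell by 0.76 ± 0.17 against Sham and was lower than in WT (-1.04 ± 0.17, adjusted p = 0.00023), and it lost the call against Sham under quantile normalization.

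**Figure D4:**
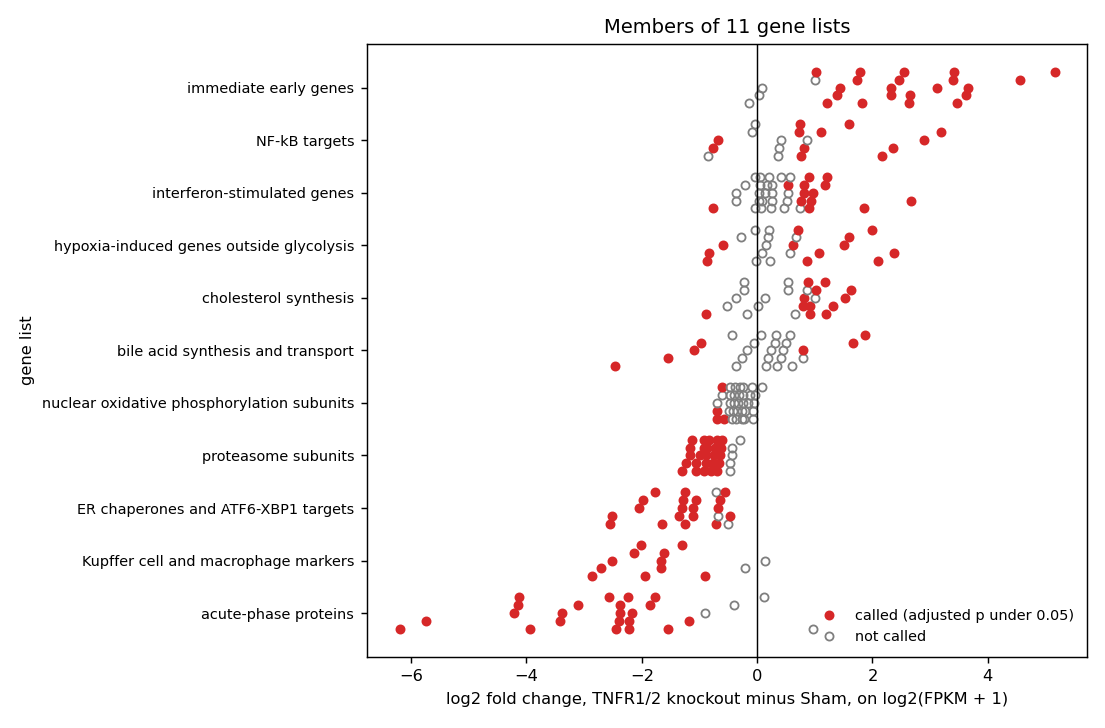
Log2 fold change of every tested member of 11 gene lists in TNFR1/2 knockout minus Sham (horizontal axis), 1 circle per gene, red where the adjusted p was under 0.05 and open where it was not. Red circles lie to the right for most immediate early genes and to the left for most acute-phase, Kupffer cell, ER chaperone and proteasome genes, and oxidative phosphorylation subunits cluster just left of 0, nearly all open.

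On several lists of hepatocyte metabolism and secretion, most genes tested were called higher in the knockout than in the WT libraries. Of these lists, 4 are given first. Their counts against Sham stand beside 7.46% of all genes called higher and 18.1% called lower. Nuclear genes of oxidative phosphorylation, the respiratory chain subunits, had 35 of 35 tested, with 0 called higher and 4 lower, and 0 lower under either scaling, against 35 lower in WT. In knockout minus WT, 35 of 35 were called higher. Amino acid catabolism had 0 higher and 9 lower of 32 in the knockout comparison and 32 lower in WT, and 31 were called higher in knockout minus WT. The split against Sham was 2 higher and 6 lower under quantile normalization. Complement and coagulation factors had 3 higher and 4 lower of 34 tested (of 36), against 32 lower in WT, and 28 were called higher in knockout minus WT. Against Sham their higher count was 5 under median-of-ratios scaling, 8 under quantile normalization, 0 without the second Sham column or without the filter on low values, and 1 without the first Sham column or the second or the third knockout library. Their lower count was 2 under either scaling and without the third Sham column or the first knockout library. Secreted hepatocyte proteins had 1 higher and 8 lower of 27 tested (of 30), against 27 lower in WT, and 23 were called higher in knockout minus WT, with 5 higher and 5 lower against Sham under quantile normalization. The urea cycle enzyme Cps1, which fixes ammonia in mitochondria, was at 322, 414 and 251 FPKM in Sham, 299.6, 384 and 357 FPKM in the knockout and 39.0 to 64.0 FPKM in the WT libraries, so that knockout and Sham overlapped. Ass1, another urea cycle enzyme, was at 1244 to 1487 FPKM in Sham and 1096 to 1353 FPKM in the knockout libraries (not called), while arginase, Arg1, fell by 1.15 ± 0.25 and lost the call under quantile normalization.

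Nnmt and Mat1a, of methyl-group metabolism, were called lower than Sham in both the knockout and the WT libraries. Of 20 genes of the methionine cycle and nicotinamide methylation, 19 passed, of which 1 was called higher, 7 lower and 11 not called. Without further scaling, 18.1% of all genes were called lower. The lower count of the list was 3 under quantile normalization, in which 1180 of the 11728 genes tested were called lower. Nnmt, which methylates nicotinamide, was at 1865, 1329 and 1788 FPKM in Sham, 45.2, 59.0 and 27.8 FPKM in the knockout and 6.45 to 10.3 FPKM in the WT libraries. It fell by 5.25 ± 0.29 (adjusted p = 1.1e-07) and remained above WT (2.26 ± 0.29). Mat1a, which makes S-adenosylmethionine in hepatocytes, was at 1575, 2176 and 1647 FPKM in Sham, 341, 511 and 409 FPKM in the knockout and 57.0 to 74.4 FPKM in the WT libraries. It fell by 2.10 ± 0.22 against 4.69 ± 0.22 in WT.

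Fatty acid oxidation and ketogenesis, the fasting use of fat, had 3 higher and 14 lower of 33 tested, against 1 and 30 in WT. In knockout minus WT, 29 were called higher and 2 lower. The lower count against Sham in the knockout comparison was 6 under median-of-ratios scaling and 5 under quantile normalization. It was 9 without the second Sham column and 8 without the third knockout library. Slc25a20, the carnitine carrier, was at 41.1 to 44.1 FPKM in the knockout libraries, below every Sham library, and fell by 1.52 ± 0.14. Of 25 drug-metabolizing cytochromes P450, 24 passed and 2 were called higher and 9 lower, with 4 lower under either scaling and 5 without the second or the third knockout library. In WT against Sham 0 were called higher and 22 lower, and in knockout minus WT 18 were called higher and 0 lower. Cyp2b10, the classical target of the receptor CAR, was at 62.8, 161 and 164 FPKM in Sham, 5.66, 4.88 and 5.76 FPKM in the knockout and 5.12 to 10.9 FPKM in the WT libraries. Its fall of 4.22 ± 0.50 was not called different from that in WT.

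More lipid synthesis genes were called higher than lower in the knockout libraries. Of 24 cholesterol synthesis genes all passed, with 11 called higher and 1 lower (median 0.81), against 3 and 8 in WT. In WT against Sham 16.4% of all genes were called higher and 41.9% lower, and the median of this list was 0.19 above that of all genes. The higher count in the knockout comparison was 6 without the second Sham column, 6 without the second knockout library and 7 without the third. Of 20 lipogenesis genes, 19 passed and 6 were called higher and 2 lower, against 2 and 9 in WT, where the median was -0.33 relative to all genes. Srebf1, which encodes the transcription factor of fatty acid synthesis, was at 5.47, 5.94 and 8.59 FPKM in Sham, 45.5, 106 and 124 FPKM in the knockout and 33.9 to 72.4 FPKM in the WT libraries. It rose by 3.50 ± 0.44 (adjusted p = 0.00017). Insig2, an ER anchor that retains SREBP proteins, was at 157 to 261 FPKM in Sham and 28.3 to 35.8 FPKM in the knockout libraries and fell by 2.60 ± 0.29.

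Some glucose-handling genes also rose. Of 22 gluconeogenesis and glycogen genes, 21 passed and 5 were called higher and 2 lower, with 3 higher without the first Sham column and 8 under quantile normalization. Slc2a2 (GLUT2), the hepatocyte glucose transporter, was at 30.2 to 34.9 FPKM in Sham, 112, 164 and 125 FPKM in the knockout and 5.46 to 12.7 FPKM in the WT libraries. It rose by 1.99 ± 0.25 against Sham and by 3.77 ± 0.25 against WT. Ppp1r3g, a glycogen-targeting subunit of protein phosphatase 1, was at 0.119 to 0.233 FPKM in Sham and 8.74 to 11 FPKM in the knockout libraries and rose by 3.18 ± 0.38.

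Of 27 bile acid genes 25 passed, with 3 called higher and 4 lower in the knockout comparison, shares near the 7.46% and 18.1% of all genes, against 1 and 21 in WT. The split became 5 and 2 under median-of-ratios scaling and 7 and 2 under quantile normalization, and the lower count was 2 without the second or the third Sham column or the first or second knockout library. Cyp7a1, which starts the main route from cholesterol to bile acids, was at 5.78, 5.6 and 2.7 FPKM in Sham, 10.5, 16.8 and 24.7 FPKM in the knockout and 0.264 to 1.34 FPKM in the WT libraries. It rose by 1.66 ± 0.33 against Sham (adjusted p = 0.0036). Nr0b2 (SHP), a repressor of Cyp7a1 transcription, rose by 1.87 ± 0.44. Cyp8b1, which directs synthesis to cholic acid, was at 137 to 321 FPKM in Sham, 39.1 to 99.7 FPKM in the knockout and 5.85 to 7.23 FPKM in the WT libraries, and fell by 1.55 ± 0.38.

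Of 22 circadian clock and output genes, 20 passed and 10 were called higher and 3 lower (median 0.57), with 6 higher without the third knockout library. Dbp, an output factor of the clock whose level swings widely over the day, was at 23.4, 19.4 and 19.9 FPKM in Sham, 119, 106 and 104 FPKM in the knockout and 6.62 to 17.2 FPKM in the WT libraries. It rose by 2.34 ± 0.25 against Sham, while WT fell by 0.96 ± 0.25. Usp2, a clock-controlled deubiquitinase, rose by 1.28 ± 0.25 while WT fell by 1.39 ± 0.25. Bhlhe40 and Wee1, both also induced by stress, rose by 2.09 ± 0.24 and 2.04 ± 0.19 and were not called different from WT. The labels give no time of day, so a difference in sampling time was not tested.

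Cell type markers were summed to show which cells the tissue RNA came from. In bulk tissue, fewer cells of a type and less RNA per cell cannot be told apart. Kupffer cells are the resident macrophages of the liver and a main source of TNF. The 16 markers of Kupffer cells and macrophages summed to 116 to 201 FPKM in Sham, 29.2 to 49.9 FPKM in the knockout and 103 to 121 FPKM in the WT libraries. Of these markers 13 passed the filter, with 11 called lower and 0 higher in the knockout against Sham (median -1.67). In WT against Sham, 8 of the 13 were called lower and 1 higher, beside 41.9% and 16.4% of all genes. The RIPK1 D138N libraries summed to 54.6 to 69.8 FPKM, and 0 of the 13 were called higher or lower in the knockout against them. Clec4f, a lectin specific to Kupffer cells, was at 29.6, 23.3 and 14.4 FPKM in Sham, 2.33, 1.70 and 2.29 FPKM in the knockout and 3.90 to 4.94 FPKM in the WT libraries. It fell by 2.87 ± 0.25 (adjusted p = 1.3e-05) and was lower than in WT (-0.81 ± 0.25, adjusted p = 0.018). C1qa, a complement subunit made by macrophages, was at 27.1 to 32.6 FPKM in Sham, 3.08 to 5.10 FPKM in the knockout and 9.79 to 14.8 FPKM in the WT libraries. The scavenger receptor gene Cd163 was at 2.38 to 2.39 FPKM in Sham and 0.0237 to 0.0986 FPKM in the knockout libraries. Cd68, a general macrophage marker, was at 2.14 to 2.71 FPKM in Sham, 1.26 to 3.11 FPKM in the knockout and 41.7 to 60.8 FPKM in the WT libraries. It was not called in the knockout against Sham. Cd68 is part of the sums above, so the WT sum does not show that Kupffer cell markers were kept there. The part of Kupffer cells in the acute-phase and chemokine results above was not tested.

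Red blood cell genes summed to 171 to 323 FPKM in Sham, 970 to 2016 FPKM in the knockout and 82.7 to 155 FPKM in the WT libraries, with 5 of 7 tested members called higher. Hbb-bs, a β-globin gene, was at 142, 164 and 50.1 FPKM in Sham and 536, 620 and 1118 FPKM in the knockout libraries and rose by 2.76 ± 0.47 (adjusted p = 0.0013). The α-globin gene Hba-a1 rose by 2.60 ± 0.39, and reads of the similar globin copies can be split between them. Alas2, the erythroid heme synthesis enzyme, was not called (0.05 ± 0.47). Globin RNA is a sign of blood left in the tissue, and its part in other results was not tested. Hepatocyte marker sums were 34853 to 42053 FPKM in Sham, 20724 to 24636 FPKM in the knockout and 9390 to 11761 FPKM in the WT libraries. Neutrophil markers summed to 39.0 to 83.5 FPKM in Sham and to 188, 27.6 and 12.4 FPKM in the 3 knockout libraries, of which the first stands apart. Liver endothelial markers summed to 54.6 to 82.4 FPKM in Sham and to 95.1, 18.8 and 60.9 FPKM in the knockout libraries, of which the second stands apart. Stellate cell markers summed to 188 to 219 FPKM in Sham and 144 to 238 FPKM in the knockout libraries, which overlap, and had 6 of 18 tested members called higher and 0 lower, among them Col3a1, a fibrillar collagen (1.84 ± 0.42 against 3.72 ± 0.42 in WT), and Vim, an intermediate filament gene (1.09 ± 0.22 against 3.21 ± 0.22). Cholangiocyte markers summed to 243 to 356 FPKM in Sham, 525 to 826 FPKM in the knockout and 2572 to 2761 FPKM in the WT libraries. These sums include Krt8, a keratin of hepatocytes as well as bile ducts, so they do not stand for bile duct cells alone. Of 8 tested members, 2 (Krt8 and Sox9) were called higher in the knockout against Sham, 0 lower and 6 not called.

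Some large falls had a counterpart of similar size in WT. Moxd1, a monooxygenase-like gene, was at 30.0, 49.7 and 35.7 FPKM in Sham, 0.03, 0.191 and 0.49 FPKM in the knockout and 0.24 to 0.436 FPKM in the WT libraries, falls of 4.98 ± 0.21 and 4.87 ± 0.21. Abhd1, a hydrolase-fold gene, was at 14.8 to 16.2 FPKM in Sham, 0.788 to 0.897 FPKM in the knockout and 0.269 to 0.652 FPKM in the WT libraries (falls of 3.16 ± 0.15 and 3.48 ± 0.15). Eif4ebp3, a translation repressor, fell by 3.12 ± 0.42 and 3.06 ± 0.42. B3galt1, a galactosyltransferase, fell by 3.59 ± 0.35 and 4.08 ± 0.35.

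Others stood apart from both Sham and WT. Hist1h2al, a histone H2A gene whose reads can be split with near-identical histone copies, was at 0 to 0.681 FPKM in Sham, 33.7, 57.2 and 87.7 FPKM in the knockout and 0 to 0.392 FPKM in the WT libraries. It rose by 5.34 ± 0.34 against Sham (adjusted p = 6.3e-07). Hsd3b2, a steroid dehydrogenase, was at 1.09 to 1.38 FPKM in Sham, 25.8, 17.7 and 44.3 FPKM in the knockout and 0.532 to 1.42 FPKM in the WT libraries, a rise of 3.65 ± 0.28. Nrep was at 0.643 to 1.23 FPKM in Sham and 25.8, 9.14 and 23.1 FPKM in the knockout libraries, a rise of 3.29 ± 0.29. Cib3 and Eno1b also met the naming rule, but each lost its call when the second or the third knockout library was left out.

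The knockout libraries were also set against those of the other mutant line of the series. Of the tested genes, 109 (0.929%) were called different between the TNFR1/2 knockout and RIPK1 D138N libraries, and this count ran from 27 to 588 as single libraries were left out. Leaving out the first RIPK1 D138N library gave the 588. That library had Xist at 0.0215 FPKM and Ddx3y at 21.0 FPKM, and the other two had Xist at 20.1 and 23.4 FPKM and Ddx3y at 0.0176 FPKM or 0, whereas all knockout and Sham libraries resembled the first, so sex differs within that group. Hist1h2al was at 0 to 1.02 FPKM in the RIPK1 D138N libraries (knockout higher by 5.24 ± 0.34, adjusted p = 2.3e-06), and Hsd3b2 was at 5.01 to 6.88 FPKM (2.07 ± 0.28, adjusted p = 0.0033). Nrep, at 12.6 to 14.4 FPKM there, was not called different from the knockout libraries (0.36 ± 0.29, adjusted p = 0.71), nor were Slc2a2, Hbb-bs or Orm2.

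**Figure D5:**
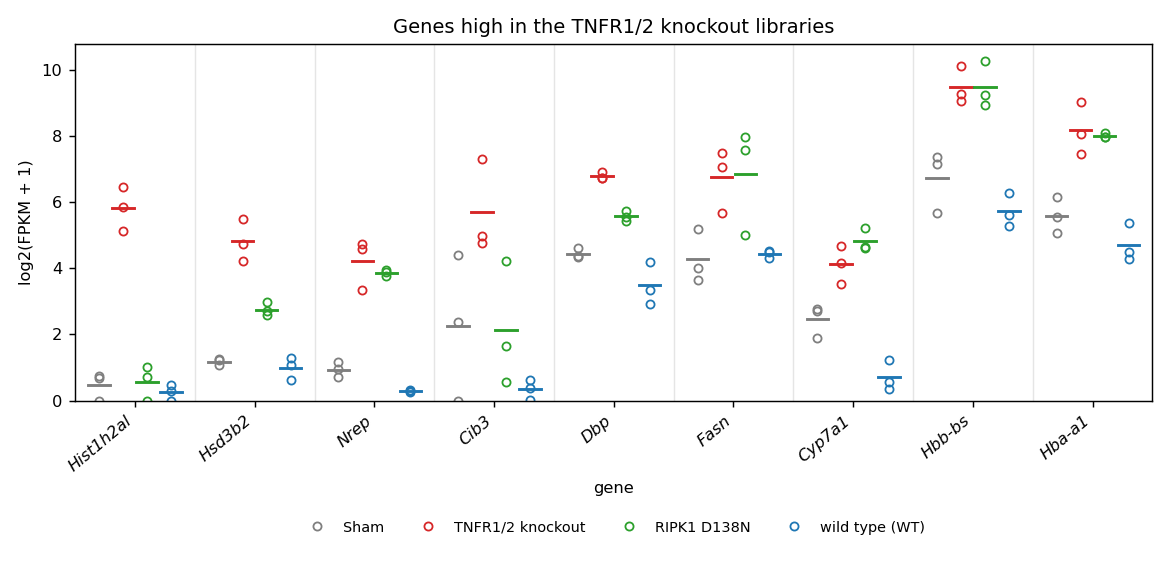
log2(FPKM + 1) of 9 genes (horizontal axis) in each Sham (grey), TNFR1/2 knockout (red), RIPK1 D138N (green) and WT (blue) library, with circles for libraries and bars for group means. Hist1h2al is high in the knockout libraries alone, whereas Nrep, Cyp7a1 and the globin genes Hbb-bs and Hba-a1 are above Sham and WT in both mutant lines.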

How the data were processed

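RNA of mouse liver was measured in 12 libraries, 3 per group, from Trizol-extracted total RNA with the NEB RNA Ultra kit, per the labels' protocols. The deposited values are FPKM per gene. STAR 2.5.4a, Cufflinks 2.2.1, Cuffdiff and the mm10 genome are named in the submitters' processing notes, and the sources used here do not give the strand setting. The FPKM that the authors deposited carry no fragment counts, so depth is unknown. The steps between low values put it, relative to 1 Sham library, at 1 to 2.28 in Sham and 1.93 to 2.95 in the knockout libraries.

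Values were tested as log2(FPKM + 1), with a pseudocount of 1, for the 11728 genes that reached 1 FPKM in 3 or more libraries. The fit used limma 3.58.1 (R 4.3.3) with a mean-variance trend, all 12 libraries and 4 group means, and Benjamini-Hochberg adjustment over all genes tested. It was tested on simulated data. The members of 38 pathway and 9 marker lists were chosen with earlier results of these data known, so list counts are descriptions. Genes named were the 10 largest rises and falls, up to 4 called and 2 uncalled members of each list with those called against its majority, up to 6 genes per direction beyond or like WT, and the TNF genes. A further 9 (Maff, Nr4a1, Ifit1, Nfkb2, Timp1, Egln3, Psmd11, Cd163 and Mt2) were chosen after their values were seen. Sham and WT columns were matched to their group and not to single samples. Results for some genes are not reported here.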

Additional observations from a re-analysis of the deposited data

How the results depend on the processing

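The direction and call of the knockout comparison were recomputed under 2 other scalings, 2 other pseudocounts, 2 other filters, a fit of only the groups compared, without loci listed at 0, without each library and with a replicate block. Against 2127 genes called lower in knockout minus Sham, median-of-ratios scaling gave 1193 and quantile normalization 1180. Against 875 called higher, a filter of 5 FPKM in 3 libraries gave 538, with 2179 genes called in all. Leaving out 1 library at a time gave 1856 to 2609 calls, 550 to 712 higher and 1306 to 1909 lower. For knockout against RIPK1 D138N, with 109 calls, the counts were 60 with no filter, 20 with only both groups fitted, 69 with the replicate block and 27 to 588 without 1 library. Under quantile normalization Apoa1 (0.0836), Cyp2e1 (0.110), Ftl1 (0.573) and mt-Nd6 (0.0827) changed sign. Of 194 called genes chosen by the naming rule or afterwards, 169 held their call under median-of-ratios scaling, 163 under quantile normalization, 153 with no filter and 161 to 173 without 1 library. The cause of these changes was not tested, except that fewer genes or libraries enter some fits. With the replicate number as a block, 2748 genes were called (821 higher, 1927 lower). Deviations of same-numbered Sham and knockout libraries correlated at -0.017, -0.202 and 0.124, and not every library correlated best with its own number, so the numbers were not taken to pair the samples. The unknown depth limits genes near 1 FPKM.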
